A study of Mus musculus with 14 samples.

Results

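The superoxide dismutases (Sod1, Sod2, Sod3), catalase (Cat) and 5 glutathione peroxidases (Gpx1, Gpx3, Gpx4, Gpx7, Gpx8) were followed across 3 cell classes. The cells came from the mouse hippocampus and were labelled as precursor cells. The genes were chosen by symbol as 9 of the 15119 genes in the expression table, and all 9 passed the filter on low values. The source was the dentate gyrus of untreated B6.Cg-Tg(Nes-EGFP)1Yamm mice, in which regulatory elements of the Nestin gene drive the green fluorescent protein EGFP. Every class was GFP-positive, and the sorter divided the cells by dihydroethidium, a dye that becomes fluorescent on oxidation by superoxide and other oxidants. The classes are ROS+ (5 libraries), ROS++ (5 libraries) and ROS+++ (4 libraries), in order of dye signal, where ROS stands for reactive oxygen species. All 3 classes carry the transgene, no GFP-negative class is compared here, and the labels give no age, sex or number of animals per library.

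These enzymes act in sequence. Superoxide dismutases turn superoxide into hydrogen peroxide, and catalase and the glutathione peroxidases then reduce the peroxide to water, the latter with electrons from glutathione or protein thiols. Each enzyme works in its own place: Sod1 mainly in the cytosol, Sod2 in the mitochondrial matrix, Sod3 outside the cell, catalase in peroxisomes, Gpx1 and Gpx4 in the cytosol and mitochondria, Gpx7 and Gpx8 in the endoplasmic reticulum (ER), and Gpx3 as a secreted protein. Adult neural stem cells are known for a redox state that changes between quiescence and proliferation.

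The 5 peroxidases differ at the residue that meets the peroxide, and the coding sequence around that codon is shown for this reason. The codon of the catalytic residue is in capitals, each window is 27 bases of 1 exon, read 5′ to 3′ on the coding strand from the GENCODE M21 principal transcript, and coordinates are on GRCm38 (mm10).
Gpx1, chr9:108339439-108339465, plus strand: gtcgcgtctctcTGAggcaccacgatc
Gpx3, chr11:54907244-54907270, plus strand: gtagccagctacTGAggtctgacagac
Gpx4, chr10:80054725-80054751, plus strand: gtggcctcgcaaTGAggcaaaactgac
Gpx7, chr4:108403418-108403444, minus strand: gtagctagcgaaTGTggcttcacagac
Gpx8, chr13:113045649-113045675, minus strand: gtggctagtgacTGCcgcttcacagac
Gpx1, Gpx3 and Gpx4 carry TGA, a stop codon that is read as selenocysteine, at codons 47, 73 and 73 of their transcripts, and their proteins therefore depend on selenium. Gpx7 (codon 56) and Gpx8 (codon 79) carry an ordinary cysteine codon. None of the other 4 members has an in-frame TGA codon. Gpx7 and Gpx8 shared 49.5% of 186 aligned residues, Gpx1 and Gpx3 50.8% of 195, and Sod1 and Sod3, which both bind copper and zinc, 42.9% of 147. Sod2, the manganese enzyme, shared 28.9% of 121 aligned residues with Sod1 and 23.2% of 138 with Sod3.

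The ROS+ libraries held 20832009 to 25313902 reads over the listed genes, the ROS++ libraries 18325361 to 23454022 and the ROS+++ libraries 12704227 to 20998589. Levels are CPM, the reads of a gene scaled to the total of its library. A count of 0 allows up to 3 reads, 0.1185 to 0.2361 CPM depending on the library, which covers counting error only because amplified reads carried no molecular identifiers. Changes are differences of log2(CPM + 1) with their standard error (SE), and they understate the change of a gene near 0. Calls are genes with an adjusted p (Benjamini-Hochberg) below 0.05 in the limma fit of all 15102 tested genes. The labels do not say that replicates come from separate animals, so p-values cover only the variation among these samples, possibly technical. Nes, the gene whose regulatory elements drive EGFP here, ranged over 11.2 to 23.0 CPM in ROS+. It ranged over 77.6 to 127 CPM in ROS++ and 137 to 321 CPM in ROS+++. Nes cannot settle the cell type label, because the mural marker list given below rose at the same steps. Marker lists of other cells moved with the sort, and their values stand beside the results below.

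Between ROS+ and ROS++, 5 of the 9 members rose (Sod3, Gpx8, Gpx3, Gpx1 and Gpx4) against 16.4% of all tested genes. None fell by limma at the adjusted threshold (0 also at an unadjusted p under 0.05 and 0 with limma-voom), against 13.2% of all tested genes. Between ROS+ and ROS+++, 4 rose (Sod3, Gpx8, Gpx1 and Gpx4; all genes 19.2%) and Gpx3 fell (all genes 40.0%). Between ROS++ and ROS+++, 3 rose (Sod3, Gpx8 and Gpx1; all genes 9.89%) and 2 fell (Gpx3 and Gpx7; all genes 29.2%). In each comparison 4 members had libraries that did not overlap between the classes, where all tested genes gave 23.0%, 50.0% and 27.0% in the same order. The F-test over the classes called 6 of the 9 members, close to the 61.5% of all tested genes, and did not call Sod1, Sod2 or Cat.

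The median change of the members was 0.51 from ROS+ to ROS++, 0.24 from ROS+ to ROS+++ and 0.03 from ROS++ to ROS+++, where that of all tested genes was -0.03, -0.44 and -0.34. Scaling by library totals thus left most genes lower in ROS+++. With relative log expression factors the median of all genes was -0.01, -0.04 and 0.03, and that of the members 0.54, 0.68 and 0.45. The split of all calls moved with it: from ROS+ to ROS+++ the higher calls were 32.5% of all calls on library totals but 50.6% with those factors, and from ROS++ to ROS+++ 25.3% and 52.2%. On that scale 6 members rose from ROS+ to ROS+++ and no called fall remained, since Sod1 and Cat entered and Gpx3 left, and 5 rose and 1 fell between ROS++ and ROS+++, since Sod1 and Gpx4 entered and Gpx7 left.

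**Figure D1:**
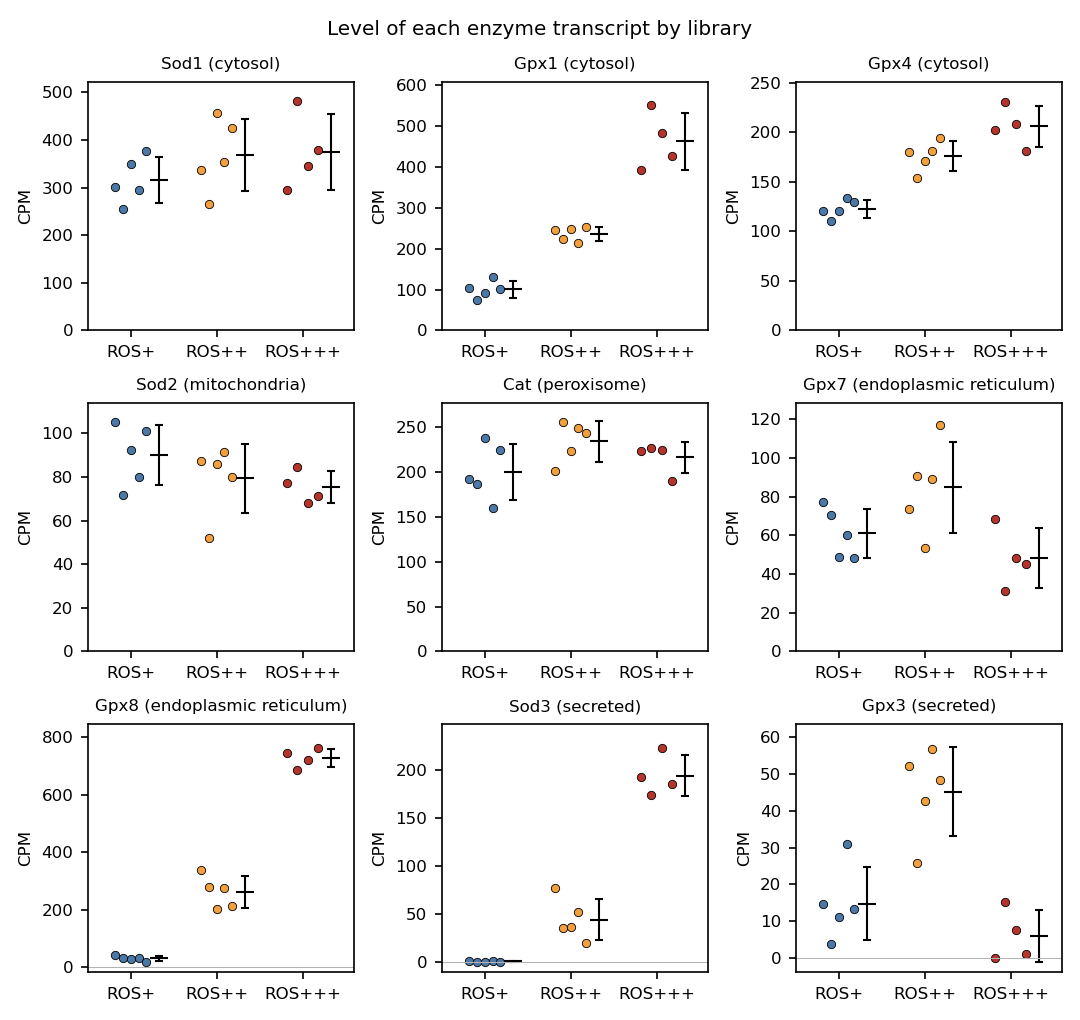
CPM of each member (linear axis from 0) in the libraries of ROS+, ROS++ and ROS+++; each point is 1 library, and the bar beside the points is the mean with its SD. Sod3, Gpx1 and Gpx8 separate all 3 classes, Gpx3 peaks in ROS++, and the points of Sod1, Sod2 and Cat overlap between classes.

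Sod1 (ENSMUSG00000022982, chr16:90220754-90226329), the copper and zinc dismutase of the cytosol, was the most abundant dismutase in every library. Sod1 stood at 301, 255, 349.8, 295 and 377 CPM in the ROS+ libraries, at 337, 265, 457, 354 and 426 CPM in the ROS++ libraries and at 294, 482, 346 and 379.6 CPM in the ROS+++ libraries. The classes overlapped widely. Their means were 316 ± 48.0, 368 ± 76.0 and 375 ± 79.3 CPM (SD, n = 5, 5 and 4). The change was 0.21 (95% interval -0.12 to 0.53, adjusted p = 0.342) from ROS+ to ROS++ and 0.24 (-0.11 to 0.59, adjusted p = 0.218) from ROS+ to ROS+++. The latter passed the limma test with relative log expression, upper-quartile and trimmed-mean factors, at 0.68, 0.54 and 0.62. A processed pseudogene, Gm8566, matches Sod1 at 97.8% over 465 bases, so reads could have been shared with it.

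Sod2 (ENSMUSG00000006818, chr17:13006846-13040063), which guards the mitochondrial matrix, passed in no comparison. Sod2 stood at 105, 71.8, 92.3, 80.1 and 101 CPM in the ROS+ libraries, at 87.5, 51.9, 85.9, 91.6 and 80.0 CPM in the ROS++ libraries and at 77.3, 84.7, 68.2 and 71.2 CPM in the ROS+++ libraries. The changes were -0.19 (95% interval -0.54 to 0.16) from ROS+ to ROS++ and -0.24 (-0.61 to 0.12) from ROS+ to ROS+++, with limma adjusted p of 0.421 and 0.241. The sign of the latter was not stable, being 0.19, 0.05 and 0.13 under relative log expression, upper-quartile and trimmed-mean scaling. A rise of more than 0.16 from ROS+ to ROS++ lay outside the interval on the scale of library totals.

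Sod3 (ENSMUSG00000072941, chr5:52363791-52371418), the secreted dismutase that binds heparan sulfate in the extracellular matrix, was nearly absent from ROS+. Its libraries there held 19, 1, 0, 22 and 1 reads, or at most 0.938 CPM, and the library with 0 reads allows up to 0.1338 CPM. It measured 76.6, 34.7, 35.6, 52.2 and 19.8 CPM in ROS++ and 192, 174, 223 and 185 CPM in ROS+++. No library of a class reached the next class. The rise was 4.97 ± 0.32 (SE) from ROS+ to ROS++ and 2.25 ± 0.34 from ROS++ to ROS+++ (limma adjusted p = 3.35e-09 and 5.82e-05). The second step was a 4.42-fold higher mean CPM. In bulk libraries such as these, fewer cells of a type and less RNA per cell cannot be told apart.

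The list of mural cell markers (pericytes and vascular smooth muscle) moved in the same direction as Sod3. Its 13 genes analysed, of 14 in the list, summed to 201 to 711 CPM in ROS+, 7572 to 22784 CPM in ROS++ and 50134 to 57665 CPM in ROS+++. All 13 were called higher in ROS++ and in ROS+++ than in ROS+, and 9 were called higher in ROS+++ than in ROS++. Its most abundant genes in ROS+++ were Rgs5, Vtn and Higd1b, and no gene of the list had 3 reads or fewer in every library of a class. Within ROS++ the mural sums of replicates 1 to 5 were 22784, 9493, 9067, 17851 and 7572 CPM, beside 76.6, 34.7, 35.6, 52.2 and 19.8 CPM of Sod3 and 340.2, 279, 204, 276 and 215 CPM of Gpx8. Replicate 1 was highest in all 3 measures. Replicate 5 was lowest in the mural sum and Sod3, and replicate 3 was lowest in Gpx8. Sums of endothelial (586 and 193 CPM) and oligodendrocyte markers (10368 and 1976 CPM) were also highest in replicate 1 and lowest in replicate 5. Microglia and macrophage sums were highest in replicate 1 (2494 CPM) and lowest in replicate 2 (997 CPM). Meningeal fibroblast and radial glia sums were lowest in replicate 5 but not highest in replicate 1. Neuroblast sums were lowest in replicate 1 (1004 CPM) and highest in replicate 5 (2511 CPM). Replicates 2 and 3 lay close to each other in the mural sum and in Sod3. Replicates 2 and 4 lay close in Gpx8 and apart in the mural sum. The part of mural cells or of any other cell type in the level of Sod3 was not tested.

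**Figure D2:**
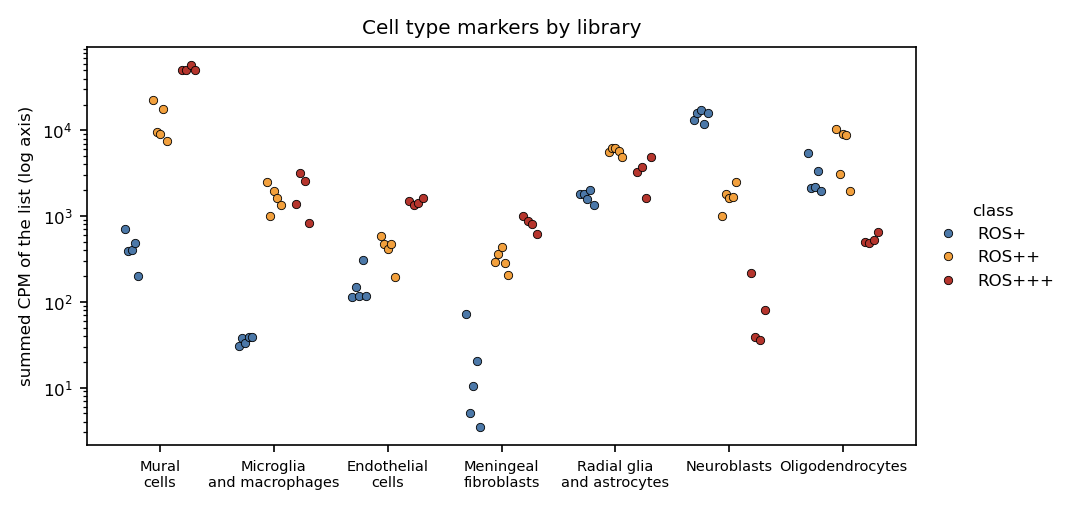
Summed CPM of 7 cell type marker lists (log axis) in each library, coloured by class. The mural list reaches 50134 to 57665 CPM in ROS+++, and the neuroblast list runs the other way, from 11983 to 17407 CPM in ROS+ to 35.6 to 215 CPM in ROS+++.

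Other marker lists also differed between the classes in which the members were measured. Neuroblast markers (10) summed to 11983 to 17407 CPM in ROS+, 1004 to 2511 CPM in ROS++ and 35.6 to 215 CPM in ROS+++, with 9 of 10 called lower in ROS++ and 10 of 10 in ROS+++ than in ROS+. Microglia and macrophage markers (15 of 16 analysed) summed to 30.4 to 38.9 CPM in ROS+, 997 to 2494 CPM in ROS++ and 830.0 to 3176 CPM in ROS+++. Endothelial markers (10) summed to 113 to 306, 193 to 586 and 1337 to 1618 CPM in the same order, with Esam and Emcn the most abundant in ROS+++. Of the 10, 2 (Esam and Emcn) were called higher in ROS++ than in ROS+ (all genes 16.4%) and 5 in ROS+++ (all genes 19.2%). Cldn5, Pecam1, Cdh5, Kdr and Ly6c1 passed in no comparison on library totals. Meningeal fibroblast markers (8) summed to 3.47 to 72.9, 206 to 433 and 617 to 1011 CPM. Radial glia and astrocyte markers (10) summed to 1342 to 1998 CPM in ROS+, 4875 to 6247 CPM in ROS++ and 1644 to 4937 CPM in ROS+++. Of these, 9 were called higher in ROS++ than in ROS+. In ROS+++, 8 were called higher and 2 (S100b and Fabp7) lower than in ROS+. Between ROS++ and ROS+++, 5 of the 10 were called lower (all genes 29.2%) and 0 higher (all genes 9.89%). Aldh1l1, Aqp4 and Gja1 had their highest means in ROS+++ but did not pass at that step on library totals. With relative log expression factors 1 (Aldh1l1) was called higher and 2 lower at that step. Oligodendrocyte markers (8) summed to 1965 to 5459, 1976 to 10368 and 487 to 653 CPM. Of 6 erythroid genes only Alas2 was analysed, at up to 3.26, 4.82 and 50.8 CPM. The part of these cells in the members' levels was not tested.

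Catalase (Cat, ENSMUSG00000027187, chr2:103453849-103485160), which splits hydrogen peroxide in peroxisomes without glutathione, varied little. Cat stood at 192, 187, 238, 159.9 and 224 CPM in the ROS+ libraries, at 200.4, 256, 223, 249 and 243 CPM in the ROS++ libraries and at 223, 227, 224 and 190.0 CPM in the ROS+++ libraries. All classes overlapped. The change was 0.24 (95% interval -0.01 to 0.48, limma adjusted p = 0.146) from ROS+ to ROS++, 0.12 (-0.14 to 0.38, adjusted p = 0.424) from ROS+ to ROS+++ and -0.12 (-0.38 to 0.15, adjusted p = 0.487) from ROS++ to ROS+++. Both comparisons with ROS+++ depended on the scaling. From ROS+ to ROS+++ the change passed the limma test at 0.56, 0.41 and 0.50 with relative log expression, upper-quartile and trimmed-mean factors, and from ROS++ to ROS+++ it turned to 0.30, 0.16 and 0.22 without passing.

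Gpx1 (ENSMUSG00000063856, chr9:108338903-108340343), the selenocysteine peroxidase that clears hydrogen peroxide in the cytosol and mitochondria, rose at both steps. Gpx1 stood at 105, 74.4, 91.8, 129.8 and 101 CPM in the ROS+ libraries, at 246, 223, 248, 214 and 254 CPM in the ROS++ libraries and at 392, 551, 483 and 426 CPM in the ROS+++ libraries. Each class lay wholly above the class before it. Mean CPM was 2.36-fold higher in ROS++ than in ROS+ and 1.95-fold higher in ROS+++ than in ROS++. On the log2 scale the steps were 1.25 ± 0.13 and 0.95 ± 0.14 (limma adjusted p = 1.48e-06 and 4.91e-05).

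Gpx4 (ENSMUSG00000075706, chr10:80047166-80056439) reduces lipid hydroperoxides inside membranes and is the enzyme whose loss opens the way to ferroptosis. Gpx4 stood at 121, 110.5, 120.5, 134 and 129.9 CPM in the ROS+ libraries, at 180.1, 154, 171, 181 and 194 CPM in the ROS++ libraries and at 202, 231, 208 and 181 CPM in the ROS+++ libraries. All ROS+ libraries lay below all others, while ROS++ and ROS+++ overlapped. The rise was 0.51 ± 0.11 to ROS++ and 0.73 ± 0.11 to ROS+++ (limma adjusted p = 0.00124 and 2.34e-05). Between ROS++ and ROS+++ the change was 0.22 (95% interval -0.02 to 0.46, adjusted p = 0.130) with library totals, and it passed at 0.64, 0.50 and 0.55 with the other 3 scalings. The gene-level value cannot separate the cytosolic, mitochondrial and nuclear forms of Gpx4, and 2 annotated copies match its transcript at over 90% identity (Gpx4-ps2 at 99.7% over 762 bases), so reads could have been divided between them.

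Gpx8 (ENSMUSG00000021760, chr13:113042753-113046410), a membrane-anchored cysteine peroxidase of the ER, had the smallest adjusted p of the members from ROS+ to ROS+++. Gpx8 stood at 43.7, 33.1, 29.9, 33.1 and 19.8 CPM in the ROS+ libraries, at 340.2, 279, 204, 276 and 215 CPM in the ROS++ libraries and at 744, 688, 722 and 763 CPM in the ROS+++ libraries. No class overlapped another. The rise was 3.02 ± 0.17 from ROS+ to ROS++ and 1.49 ± 0.18 from ROS++ to ROS+++ (limma adjusted p = 9.06e-10 and 7.19e-06), or 8.23-fold and 2.77-fold in mean CPM. The mural list rose at the same steps, and its part in the level of Gpx8 was not tested.

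Gpx7 (ENSMUSG00000028597, chr4:108400390-108406961), the soluble cysteine peroxidase of the ER lumen that passes oxidizing equivalents to protein disulfide isomerases, did not follow Gpx8. Gpx7 stood at 77.0, 70.2, 48.9, 60.2 and 48.2 CPM in the ROS+ libraries, at 73.3, 90.7, 53.5, 89.3 and 117 CPM in the ROS++ libraries and at 68.4, 31.4, 48.4 and 44.9 CPM in the ROS+++ libraries. The classes overlapped in every comparison. It fell by 0.81 ± 0.24 from ROS++ to ROS+++ (limma adjusted p = 0.0128). This call was lost with relative log expression factors (-0.40, adjusted p = 0.233), upper-quartile factors (-0.53, 0.103) and trimmed-mean factors (-0.48, 0.144), and without ROS+++ replicate 2 (-0.62, 0.0565). From ROS+ to ROS++ the change was 0.45 (95% interval -0.03 to 0.93, adjusted p = 0.149).

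Gpx3 (ENSMUSG00000018339, chr11:54902453-54910377), the secreted selenocysteine peroxidase best known from plasma, had its highest mean in the middle class. Gpx3 stood at 14.6, 3.74, 11.3, 31.0 and 13.3 CPM in the ROS+ libraries, at 52.0, 25.7, 42.6, 56.8 and 48.2 CPM in the ROS++ libraries and at 0.0955, 15.2, 7.57 and 1.18 CPM in the ROS+++ libraries. ROS++ and ROS+++ did not overlap, and ROS+ overlapped both. Gpx3 fell by 3.38 ± 0.64 from ROS++ to ROS+++ (limma adjusted p = 4.55e-04), where mean CPM was 7.49-fold lower.

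The comparisons of Gpx3 with ROS+ were less firm. The rise of 1.74 ± 0.61 to ROS++ (limma adjusted p = 0.0374) had an adjusted p of 0.0998 with a pseudocount of 0.25 CPM and 0.171 on the deposited log2 values. It was also lost when any 1 of 8 libraries was left out (1.37 to 1.80, adjusted p = 0.0539 to 0.108), namely ROS+ replicates 1, 2, 3 and 5 and ROS++ replicates 1, 3, 4 and 5. The fall of 1.64 ± 0.64 to ROS+++ (adjusted p = 0.0358) was lost with relative log expression factors (-1.32, 0.111), upper-quartile factors (-1.43, 0.0770), trimmed-mean factors (-1.36, 0.0950), limma-voom (-2.58, 0.0567) and a fit of the 2 classes alone (-1.64, 0.0694). Without ROS+++ replicate 1, the library with 2 reads of Gpx3, it was -0.99 (adjusted p = 0.158). Leaving out ROS+++ replicate 4 or ROS+ replicate 1, 3, 4 or 5 also lost it (-1.67 to -1.32, adjusted p = 0.0529 to 0.118).

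**Figure D3:**
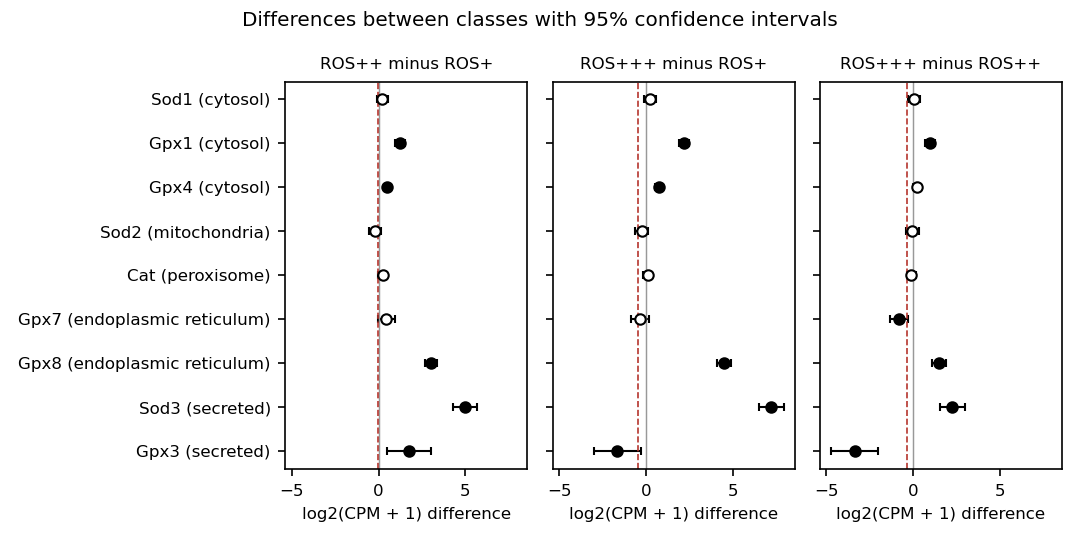
Difference of log2(CPM + 1) between classes for each member with its 95% confidence interval from the limma fit, filled where the adjusted p was under 0.05; the dashed line is the median of all tested genes. Secreted Sod3 and ER-resident Gpx8 lie far to the right in all 3 panels, while Gpx3 changes side between panels.

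Within a library the scaling nearly cancels, so 6 pairs of enzymes were also compared as log2 ratios of CPM + 1. Exact two-sided permutation tests over libraries, adjusted over the 18 tests, passed in 16, each at an adjusted p of 0.0179. The smallest p possible was 0.00794 for 5 against 5 libraries and 0.0159 for 4 against 5, and every test that passed reached it, so all libraries of the classes lay apart. Gpx8 over Gpx7, the ER pair, went from -0.93 ± 0.22 (SD) in ROS+ to 1.64 ± 0.50 in ROS++ and 3.94 ± 0.41 in ROS+++. The order of these sister enzymes was therefore reversed between ROS+ and the other classes. Sod3 over Sod1 went from -7.91 ± 0.57 to -3.15 ± 0.87 and -0.94 ± 0.40. Gpx1 over Gpx4, the cytosolic selenoenzymes, went from -0.31 ± 0.20 to 0.43 ± 0.12 and 1.16 ± 0.14.

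Mitochondrial Sod2 lost ground to cytosolic Sod1 between ROS+ (-1.80 ± 0.16) and both ROS++ (-2.20 ± 0.24) and ROS+++ (-2.28 ± 0.26), although neither gene passed alone with library totals. Between ROS++ and ROS+++ this ratio differed by -0.08 and did not pass (exact permutation adjusted p = 0.651). Catalase over Gpx1, which share hydrogen peroxide as substrate, went from 1.00 ± 0.44 to -0.02 ± 0.22 and -1.09 ± 0.20. Secreted Gpx3 over Gpx1 was -2.91 ± 0.70 in ROS+ and -2.41 ± 0.43 in ROS++, a difference of 0.49 that did not pass (exact permutation adjusted p = 0.244), and -6.75 ± 1.57 in ROS+++. A ratio shows unequal change of the pair and not which gene moved.

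Levels of different genes were compared per kilobase of the principal transcript (CPM per kilobase). Sod1 made up 96.9 ± 0.370% of the dismutase sum in ROS+, 95.7 ± 1.42% in ROS++ and 89.8 ± 2.20% in ROS+++. Sod3 held 0.0199 ± 0.0252%, 2.05 ± 1.11% and 8.22 ± 1.96% of it, and Sod2 3.03 ± 0.358%, 2.28 ± 0.363% and 2.01 ± 0.341%. The dismutase sum itself was 508 ± 76.5, 599 ± 118 and 650.2 ± 121 CPM per kilobase (SD), with ranges that overlapped between classes. The low share of Sod2 rests on its transcript of 5861 bases, which is long beside the 641 bases of Sod1.

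The glutathione peroxidase sum was 309 ± 36.1 CPM per kilobase in ROS+ (range 273 to 358), 751 ± 58.8 in ROS++ (674 to 833) and 1387 ± 49.3 in ROS+++ (1343 to 1450.1). Gpx8 took 9.90 ± 2.39%, 33.4 ± 5.25% and 50.5 ± 3.89% of it. Gpx4 went from the largest share in ROS+ (41.8 ± 3.46%) to 24.5 ± 2.06% and 15.4 ± 1.11%, although its CPM rose. Gpx1 kept a near constant share, at 30.1 ± 3.17%, 29.6 ± 3.14% and 31.0 ± 3.57%. Gpx7 held 15.4 ± 3.30%, 8.74 ± 2.31% and 2.72 ± 0.935%, and Gpx3 2.87 ± 1.64%, 3.75 ± 0.911% and 0.264 ± 0.301%.

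**Figure D4:**
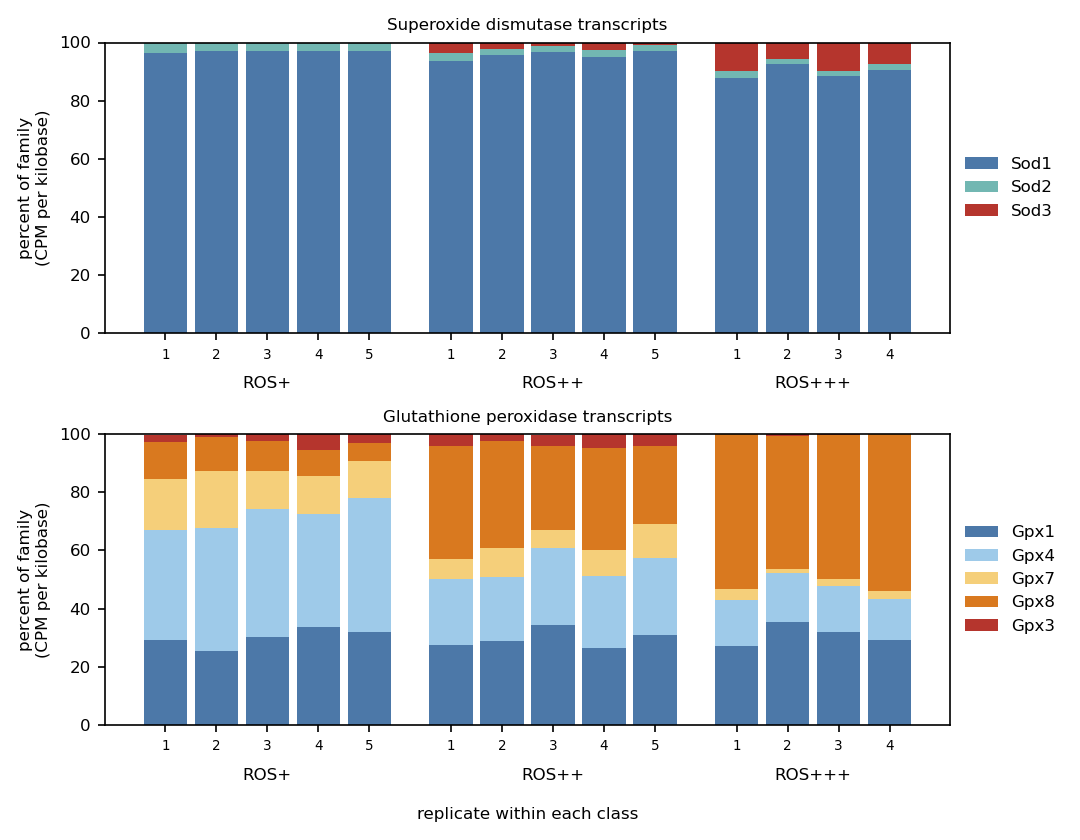
Share of each enzyme in the summed CPM per kilobase of its family in every library (percent, stacked to 100), for dismutases above and glutathione peroxidases below. Gpx8 grows from 6.45 to 12.5% in ROS+ libraries to 45.6 to 54.1% in ROS+++ libraries, and Sod3 stays at or below 0.0529% in ROS+ libraries.

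In ROS+ the order of mean CPM per kilobase was Sod1 (492), Gpx4 (128), Gpx1 (93.7), Cat (76.6), Gpx7 (47.2), Gpx8 (30.6), Sod2 (15.3), Gpx3 (9.28) and Sod3 (0.0954). The libraries of neighbours overlapped for Gpx4 and Gpx1, Gpx1 and Cat, Gpx7 and Gpx8, and Sod2 and Gpx3. In ROS++ the order was Sod1 (574), Gpx8 (252), Gpx1 (221), Gpx4 (184), Cat (89.7), Gpx7 (65.8), Gpx3 (28.3), Sod2 (13.5) and Sod3 (11.7), with overlap of Gpx8 and Gpx1, Gpx1 and Gpx4, Cat and Gpx7, and Sod2 and Sod3. In ROS+++ the order was Gpx8 (699.9), Sod1 (586), Gpx1 (432), Gpx4 (215), Cat (82.6), Sod3 (51.8), Gpx7 (37.5), Sod2 (12.9) and Gpx3 (3.77), with overlap of Gpx8 and Sod1, Sod1 and Gpx1, and Sod3 and Gpx7. An ER peroxidase that stood sixth in ROS+ was thus level with Sod1 within the spread of the ROS+++ libraries.

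The genes that supply and surround these enzymes were taken as 9 lists, whose counts stand against 16.4% higher and 13.2% lower of all tested genes from ROS+ to ROS++, 19.2% and 40.0% from ROS+ to ROS+++, and 9.89% and 29.2% from ROS++ to ROS+++. Of 12 genes of copper, zinc and manganese supply, 5 rose from ROS+ to ROS++ (41.7%, median 0.33), and from ROS+ to ROS+++ 5 rose and 2 fell (median 0.56). Ccs, the chaperone that loads copper into Sod1, rose from 44.2 ± 4.44 CPM in ROS+ to 94.2 ± 10.2 CPM in ROS++ (1.07 ± 0.13, limma adjusted p = 8.73e-06) and stood at 95.3 ± 10.5 CPM in ROS+++, while Sod1 itself did not pass with library totals. Slc30a10, a manganese exporter, rose by 2.43 ± 0.34 and then by 2.09 ± 0.37, to 233 ± 18.7 CPM in ROS+++. The copper exporter gene Atp7a rose by 1.19 ± 0.25 between ROS++ and ROS+++ and its relative Atp7b fell by 2.10 ± 0.40. Slc39a14, a gene for a metal importer, fell by 1.64 ± 0.30 at that step.

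Of 18 genes of glutathione supply, 8 rose and 1 fell from ROS+ to ROS++ (median 0.56). The leading genes were Ggt5 and Ggt1, gamma-glutamyl transferases which break down glutathione outside the cell rather than make it. Ggt5 went from 0.517 ± 0.546 in ROS+ to 105 ± 40.1 and then 465 ± 34.8 CPM, and Ggt1 from 1.44 ± 2.16 to 65.4 ± 28.3 and 287 ± 57.6 CPM. Their relative Ggt7 fell, from 82.8 ± 14.3 to 55.1 ± 15.1 and 27.0 ± 5.04 CPM. From ROS+ to ROS+++ 4 of the 18 rose and 4 fell (median -0.11), and with relative log expression factors 6 rose and 2 fell (median 0.31). Gclm, the modifier subunit of the first enzyme of glutathione synthesis, fell by 1.36 ± 0.30 between ROS++ and ROS+++ (adjusted p = 0.00172).

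Of 11 genes of selenium supply and selenoprotein synthesis analysed, 2 rose and 1 fell from ROS+ to ROS++ (18.2% and 9.1%, near the shares of all genes, median 0.14), and 5 fell from ROS++ to ROS+++ (median -0.64; 2 fell and 1 rose with relative log expression factors). Selenop, the selenium carrier, rose from 24.0 ± 14.2 CPM in ROS+ to 648 ± 152 CPM in ROS++ (4.88 ± 0.37, limma adjusted p = 2.31e-07) and stood at 527 ± 203 CPM in ROS+++. Lrp8, a receptor for that carrier, ran the other way, from 162 ± 27.8 to 48.8 ± 9.39 and 13.4 ± 8.27 CPM. Sephs1 fell by 1.04 ± 0.21 between ROS++ and ROS+++. Of 12 other selenoprotein genes, 3 rose and 1 fell from ROS+ to ROS++, led by Selenom, an ER selenoprotein, which went from 85.9 ± 9.27 to 173 ± 14.2 and 318 ± 55.1 CPM.

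Peroxiredoxins are thiol peroxidases that share hydrogen peroxide with catalase and Gpx1, and with the thioredoxins that serve them gave 6 higher and 1 lower of 12 genes from ROS+ to ROS++ (median 0.42) and 6 higher and 2 lower from ROS+ to ROS+++ (median 0.35). From ROS++ to ROS+++ 0 rose and 3 fell on library totals. At that step 4 rose and 2 fell with relative log expression factors, and 1 rose and 2 fell with upper-quartile factors. Prdx1 rose from 404 ± 87.9 to 891 ± 106 CPM and stood at 943 ± 96.2 CPM in ROS+++. With relative log expression factors Prdx1 also rose from ROS++ to ROS+++ (0.50, limma adjusted p = 0.0103). Prdx6 rose from 266 ± 34.5 to 764 ± 104 CPM and stood at 599 ± 164 CPM. Prdx2 fell at both steps, from 808 ± 29.0 to 636 ± 67.3 and 321 ± 63.3 CPM (-0.35 ± 0.11 and -1.0 ± 0.11, limma adjusted p = 0.0200 and 3.29e-06). Txnrd1, the cytosolic thioredoxin reductase, fell by 1.09 ± 0.22 between ROS++ and ROS+++.

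Around catalase, 1 of 16 peroxisome assembly genes was called from ROS+ to ROS++ (Pex19, lower), and 3 rose and 6 fell from ROS+ to ROS+++ (18.8% and 37.5%, near the shares of all genes, median -0.32). With relative log expression factors 3 rose and 2 fell in the latter comparison (median 0.10). Pex19, which inserts peroxisomal membrane proteins, went from 363 ± 47.9 to 252 ± 42.1 and 207 ± 44.0 CPM, and its fall from ROS+ to ROS+++ did not pass with those factors (-0.38, adjusted p = 0.0761). Of 6 peroxisomal oxidase genes analysed, 2 rose and 2 fell from ROS+ to ROS+++.

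Around Gpx7 and Gpx8, 1 of 11 genes of oxidative folding in the ER rose from ROS+ to ROS++ (Pdia3) and 1 fell (Qsox1), and 4 fell from ROS+ to ROS+++ (36.4%, near the share of all genes, median -0.39). With relative log expression factors 4 rose and 2 fell in that last comparison (median 0.05). Pdia6, a disulfide isomerase, measured 826 ± 37.9 CPM in ROS+, 707 ± 121 CPM in ROS++ (-0.24 ± 0.12, not passed) and 389 ± 60.5 CPM in ROS+++, where it was lower than in ROS+ by -1.10 ± 0.12. Around Gpx4, 2 of 9 lipid peroxidation genes analysed rose from ROS+ to ROS++, and 4 rose and 2 fell from ROS+ to ROS+++ (median 0.42). Alox5ap, the partner of 5-lipoxygenase, rose from 1.19 ± 0.355 to 20.7 ± 11.5 CPM in ROS++ (3.18 ± 0.37) and stood at 36.9 ± 15.2 CPM in ROS+++. Pebp1, a binding partner of 15-lipoxygenase, fell by 0.90 ± 0.18 between ROS++ and ROS+++.

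**Figure D5:**
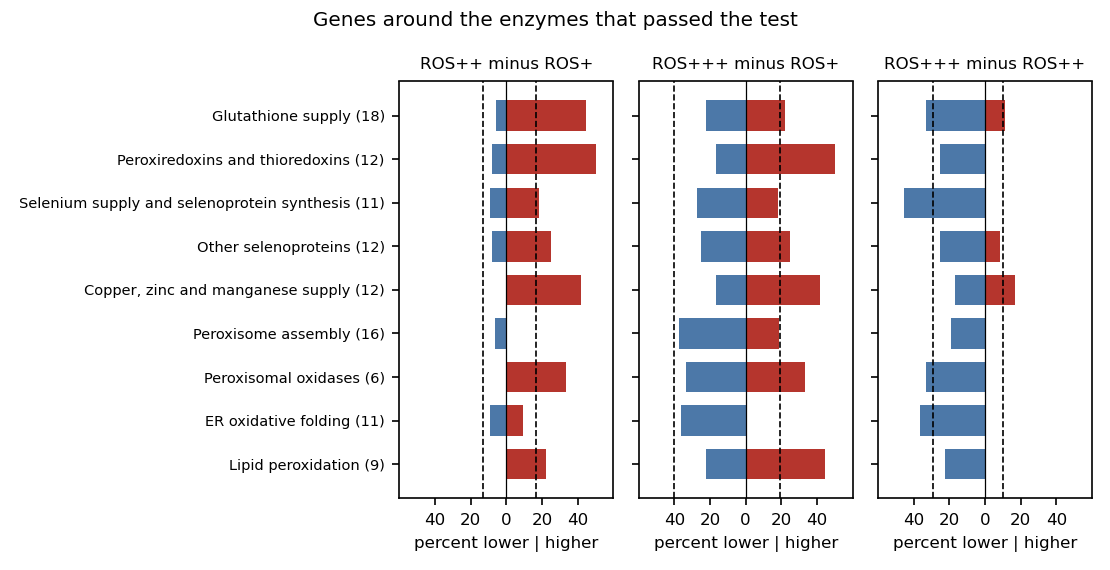
Percent of genes of each list that passed the limma test, to the right where higher and to the left where lower, with the number of genes tested in brackets; dashed lines are the percentages over all tested genes. From ROS+ to ROS++ the longest bars to the right are peroxiredoxins and thioredoxins (50.0%), glutathione supply (44.4%) and metal supply (41.7%) against 16.4% of all genes.

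For each member up to 3 genes with the most similar profile are named, found as the smallest root-mean-square difference of centred log2(CPM + 1) over the 14 libraries. Nearest to Sod3 were Gper1 (0.22), Arhgdib (0.23) and Pla1a (0.24), where Sod3 itself spread by 3.03. Gper1, a membrane oestrogen receptor, averaged 13.1, 407 and 1943 CPM in the 3 classes. Sod3 averaged 0.357, 43.8 and 194 CPM, and the added 1 CPM shrinks its change from ROS+. Its likeness to Gper1 therefore holds on this scale and not in fold change. Near to Gpx8 were Ifitm2 (0.22) and Gng11 (0.24), against a spread of 1.88, and Ifitm2, an interferon-induced membrane protein, averaged 24.0, 193 and 568 CPM. Nearest to Gpx1 were Gpc6 (0.21), Rapgef2 (0.21) and the selenoprotein gene Selenom (0.23), against a spread of 0.91.

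The profile of Gpx3 had no close match. Its nearest genes were Dna2 (0.79), Pask (0.81) and Anln (0.82), against a spread of 1.69, and Anln, a cytokinesis protein, averaged 8.57, 25.5 and 7.63 CPM. Nearest to Gpx4, with a spread of 0.32, were D8Ertd738e, Gm15266 and Dennd2a at 0.11 to 0.15, and nearest to Gpx7, with a spread of 0.47, were Zfp931, Ccdc163 and Sat2 at 0.20 to 0.24. For Sod1 (Babam1, Aamp and Kdelr2), Sod2 (Eif5a, Taok1 and Tpm3) and Cat (Psap, Anapc11 and Cbx5) the members themselves spread by 0.27, 0.25 and 0.18, so that likeness says little beyond a flat profile.

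Upstream windows of 250 bases before RefSeq starts (GRCm38.p6) could be read for 8 of the members, 11 windows in all, and were searched on both strands for 2 motifs. The antioxidant response element core TGACNNNGC, where N is any base, was found in 1 of the 8, Sod1, as GCGTGGTCA, the reverse complement form, 56 bases before the start. The AP-1 element TGANTCA was found in none of the 8. Over all 32851 windows of the table, 10.16% held the former and 6.75% the latter. Such a match describes letters only.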

How the data were processed

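The authors deposited log2 values of 15119 genes in 14 libraries. Per the labels' protocols, cDNA was made with a poly-dT primer and template switching, with no molecular identifiers and no record of strand. Per the submitters' processing notes, STAR, edgeR and mm10 were used, with roles and versions not given in the sources used here. Taken from the values themselves, the deposited unit is log2 CPM plus a small prior: 100.0% of values gave whole reads within 0.01 reads, which were scaled to library totals.

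All 14 libraries entered 1 limma-trend fit (limma 3.58.1, statmod 1.5.0, R 4.3.3) on log2(CPM + 1) with robust moderation and 11 residual degrees of freedom. The filter kept 15102 genes that reached 1 CPM in 4 or more libraries and removed 17. P-values were adjusted over all tested genes, and named limma adjusted p throughout. Ratios were tested by exact permutation in scipy 1.17.1. The fit was also run on simulated reads, with the same spread parameter for all genes and as many genes raised as lowered. Those reads held no shift of most genes, so the run cannot check the choice of scaling. Symbols, coordinates and transcripts came from GENCODE M21. The members and gene lists were chosen with earlier results of these data known. All 9 members are named, with at most 2 rising and 2 falling genes of smallest adjusted p per list and comparison, and up to 3 genes of closest profile per member; 2 genes that meet these rules are not reported here. Replicate numbers follow accession order. Library numbers in the titles form 5 runs of consecutive numbers across the classes, and these sets entered as a block in an alternative limma fit. The ratio tests permuted libraries freely between the classes compared and took no account of the sets. The other alternatives covered pseudocount, filter, scaling, model and left-out libraries.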

Additional observations from a re-analysis of the deposited data

Results flagged for a closer look

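Among 27 groups of a member in a class, 2 had a library that stood apart from the others by Dixon's criterion, which chance meets in about 1 in 20 groups. Sod2 was low in ROS++ replicate 2, at 51.9 CPM against 80.0 to 91.6 CPM in the other ROS++ libraries. Cat was low in ROS+++ replicate 4, the library with the fewest reads (12704227), at 190.0 CPM against 223 to 227 CPM in the other ROS+++ libraries. Neither gene was called in any comparison on library totals, with or without that library.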

How the results depend on the processing

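The number of members called stayed within 1.5 times its value in all 4 tests under each of up to 25 alternatives. Of 27 changes of single members, 20 stayed on their side of the adjusted p threshold under all alternatives and 7 did not. The 7 were both comparisons of Gpx3 with ROS+, both of Sod1 with ROS+++, Cat between ROS+ and ROS+++, and Gpx4 and Gpx7 between ROS++ and ROS+++. Among the 20, some changes that never passed crossed 0. These were Sod2 in both comparisons with ROS+++, Cat between ROS++ and ROS+++, and Gpx7 between ROS+ and ROS+++. No called change reversed. Sod1 rose by 0.45 between ROS++ and ROS+++ with relative log expression factors (limma adjusted p = 0.0438). Scaling of the pathway and marker lists was tried after seeing the data. The cause of these shifts was not tested. With the library-number set as a replicate block, 5 members were called in each of the 3 comparisons, no member's call changed, and 4699, 9065 and 6134 of all genes were called against 4476, 8947 and 5898 without it. The labels do not say that a set shares animals or a sort; the correlation across genes of deviations from the class means ran from -0.02 to 0.23 over 13 pairs of libraries of 1 set, above 0.1 in 3, and a library correlated best with its own set in 19 of 26 comparisons with another class. Depth limits Sod3 in ROS+, where libraries held 0 to 22 reads.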
